A study of Mus musculus with 12 samples.

Results

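A set of 7 genes that mark fibroblasts was followed across H3K79me1 and H3K79me2 peak lists from mouse embryonic fibroblasts on day 4 of reprogramming. They encode 2 chains of type I collagen (Col1a1, Col1a2), type III collagen (Col3a1), fibronectin (Fn1), the surface protein Thy1, vimentin (Vim) and smooth muscle actin (Acta2). Each gene was given a fixed window in the mm9 build, and every peak of the 8 deposited lists that overlapped a window was taken, which gave 273 of 933917 peaks. No mm9 annotation was used here, so exon borders and start sites within the windows were not placed.

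The study concerns the role of AF10, encoded by Mllt10, in keeping cell identity. AF10 binds the methyltransferase DOT1L and helps it to methylate H3K79. All cells came from a conditional AF10 line and carried the OSKM reprogramming factors and rtTA, which lets doxycycline switch them on. Controls (AF10 fl/fl) received an empty adenovirus and the other cells (AF10 -/-) an adenovirus with Cre driven by the CMV promoter, and both received doxycycline at 2 µg/mL 2 days later. Each mark had 2 control and 2 Cre libraries. The 4 libraries of RNA polymerase II were not used here. Since the labels name no separate cultures or animals for the replicates, p-values speak only to the spread among libraries, which may be technical. Reprogramming cells grew on DR4 feeder fibroblasts, and at genes that fibroblasts express, chromatin of the feeders and of the reprogramming cells cannot be told apart. Nor can fewer cells carrying a mark be told apart from less of it in each cell. A peak list holds no measure of AF10 itself, so the deletion was not checked here.

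H3K79 methylation is laid down by DOT1L over genes that RNA polymerase II transcribes. The dimethylated form is typically densest just downstream of the start of an active gene, and the monomethylated form extends farther into the gene body. Collagens I and III and fibronectin are secreted and form the fibrous matrix, Thy1 is a membrane glycoprotein used to recognise fibroblasts, and vimentin and smooth muscle actin are filament proteins of mesenchymal cells and of contractile cells. Genes of this kind are switched off as fibroblasts are converted to pluripotent cells.

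The lists differed greatly as wholes, which touches each value below. H3K79me1 peaks covered 4.46% and 2.03% of the genome in the 2 controls. After Cre the figure was 2.28% for replicate 1 and 0.0704% for replicate 2. H3K79me2 peaks covered 0.606% and 2.71% in the controls, against 1.82% and 1.90% with Cre. H3K79me1 Cre replicate 2 and H3K79me2 control replicate 1 therefore stood apart from the other libraries of their mark. Read depth is unknown from these lists. Over genome windows of 20 kb whose mean cover reached 10%, the median difference, Cre minus control, was -19.4 percentage points for H3K79me1 and 5.93 for H3K79me2. With each library's median over those windows subtracted, the H3K79me1 difference turned from negative to positive in 6 of the 7 genes and the H3K79me2 difference from positive to negative in 3, so directions below hold for unscaled cover.

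RefSeq promoter sequences (GRCm38.p6) matched 4 of the 7 genes by symbol. The 250 bases upstream of the listed start are shown for all 4 because they include the gene with the most H3K79me2 (Vim) and those with the least (Col3a1 and Acta2). They run 5′ to 3′, and capitals mark CpG dinucleotides.
Vim: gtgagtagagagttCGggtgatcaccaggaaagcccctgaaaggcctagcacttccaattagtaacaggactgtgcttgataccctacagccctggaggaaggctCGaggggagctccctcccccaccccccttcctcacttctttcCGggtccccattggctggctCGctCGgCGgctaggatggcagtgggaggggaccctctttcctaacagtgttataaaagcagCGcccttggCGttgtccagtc
Col1a2: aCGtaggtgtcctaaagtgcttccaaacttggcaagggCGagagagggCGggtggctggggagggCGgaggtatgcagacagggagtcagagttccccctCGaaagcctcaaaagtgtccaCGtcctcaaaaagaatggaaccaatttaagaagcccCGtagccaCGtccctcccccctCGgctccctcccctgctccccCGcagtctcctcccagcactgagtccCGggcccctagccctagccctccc
Col3a1: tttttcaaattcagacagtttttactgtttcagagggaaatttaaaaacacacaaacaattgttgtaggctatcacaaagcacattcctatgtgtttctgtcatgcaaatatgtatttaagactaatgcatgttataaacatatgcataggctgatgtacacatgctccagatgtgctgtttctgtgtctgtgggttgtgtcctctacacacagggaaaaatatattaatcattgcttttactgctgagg
Acta2: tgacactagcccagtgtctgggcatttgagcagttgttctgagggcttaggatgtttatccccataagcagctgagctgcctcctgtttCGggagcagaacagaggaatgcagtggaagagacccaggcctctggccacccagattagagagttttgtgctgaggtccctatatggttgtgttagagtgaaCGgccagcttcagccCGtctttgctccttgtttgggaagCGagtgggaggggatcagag
The stretch held 11 CpG dinucleotides in Col1a2, 8 in Vim, 4 in Acta2 and 0 in Col3a1, beside a median of 6 over 32851 promoters of the same length. Its G and C content was 62% in Col1a2, 58.4% in Vim, 53.6% in Acta2 and 35.2% in Col3a1, against a median of 52.4%. As few CpGs as in Col3a1 were found in 7.87% of all these promoters. The letters CCAAT, read on both strands, occurred 2 times in Vim and 1 time in Col1a2, and not in the other two, and 33.8% of all promoters held them. TATAAA, also read on both strands, occurred in Vim and Col3a1 and in 12.4% of all promoters. These are matches of letters, and with 4 genes they were not compared with the marks by a test.

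Taken as 1 set, the windows were covered more densely than the genome in all 7 libraries that had peaks in them. Over the 7 windows together, 193007 bp, H3K79me1 peaks covered 17.6% in control replicate 1, 7.17% in control replicate 2 and 9.46% in Cre replicate 1. These shares were 3.95, 3.54 and 4.16 times those of the genome. H3K79me1 Cre replicate 2 had 0 peaks in any of the 7 windows, where its genome-wide share would place 136 bp. In that list, from 2.16% (width of Thy1) to 13.6% (width of Fn1) of genome windows held any peak. An empty window was thus the usual state there. For H3K79me2 the windows were covered to 1.77% and 9.84% in control libraries and to 7.97% and 6.85% in Cre libraries, or 2.91, 3.63, 4.38 and 3.62 times the share of the genome. The excess over the genome was thus of similar size in control and Cre libraries, the H3K79me1 list without peaks apart.

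All calls in these windows were weak. The fold enrichment over background and the −log10 p are the authors' own values for each peak. Fold enrichment reached 2.41 among 142 H3K79me1 peaks and 3.39 among 131 H3K79me2 peaks. The highest −log10 p was 2.06 for H3K79me1 and 3.60 for H3K79me2. No peak reached a q of 0.05, which needs a −log10 q of 1.30, since the highest value was 0.653, in Vim in H3K79me2 Cre replicate 1. How many peaks elsewhere in the lists reached that q was not counted, so weak calls are not shown to be particular to these genes.

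**Figure D1:**
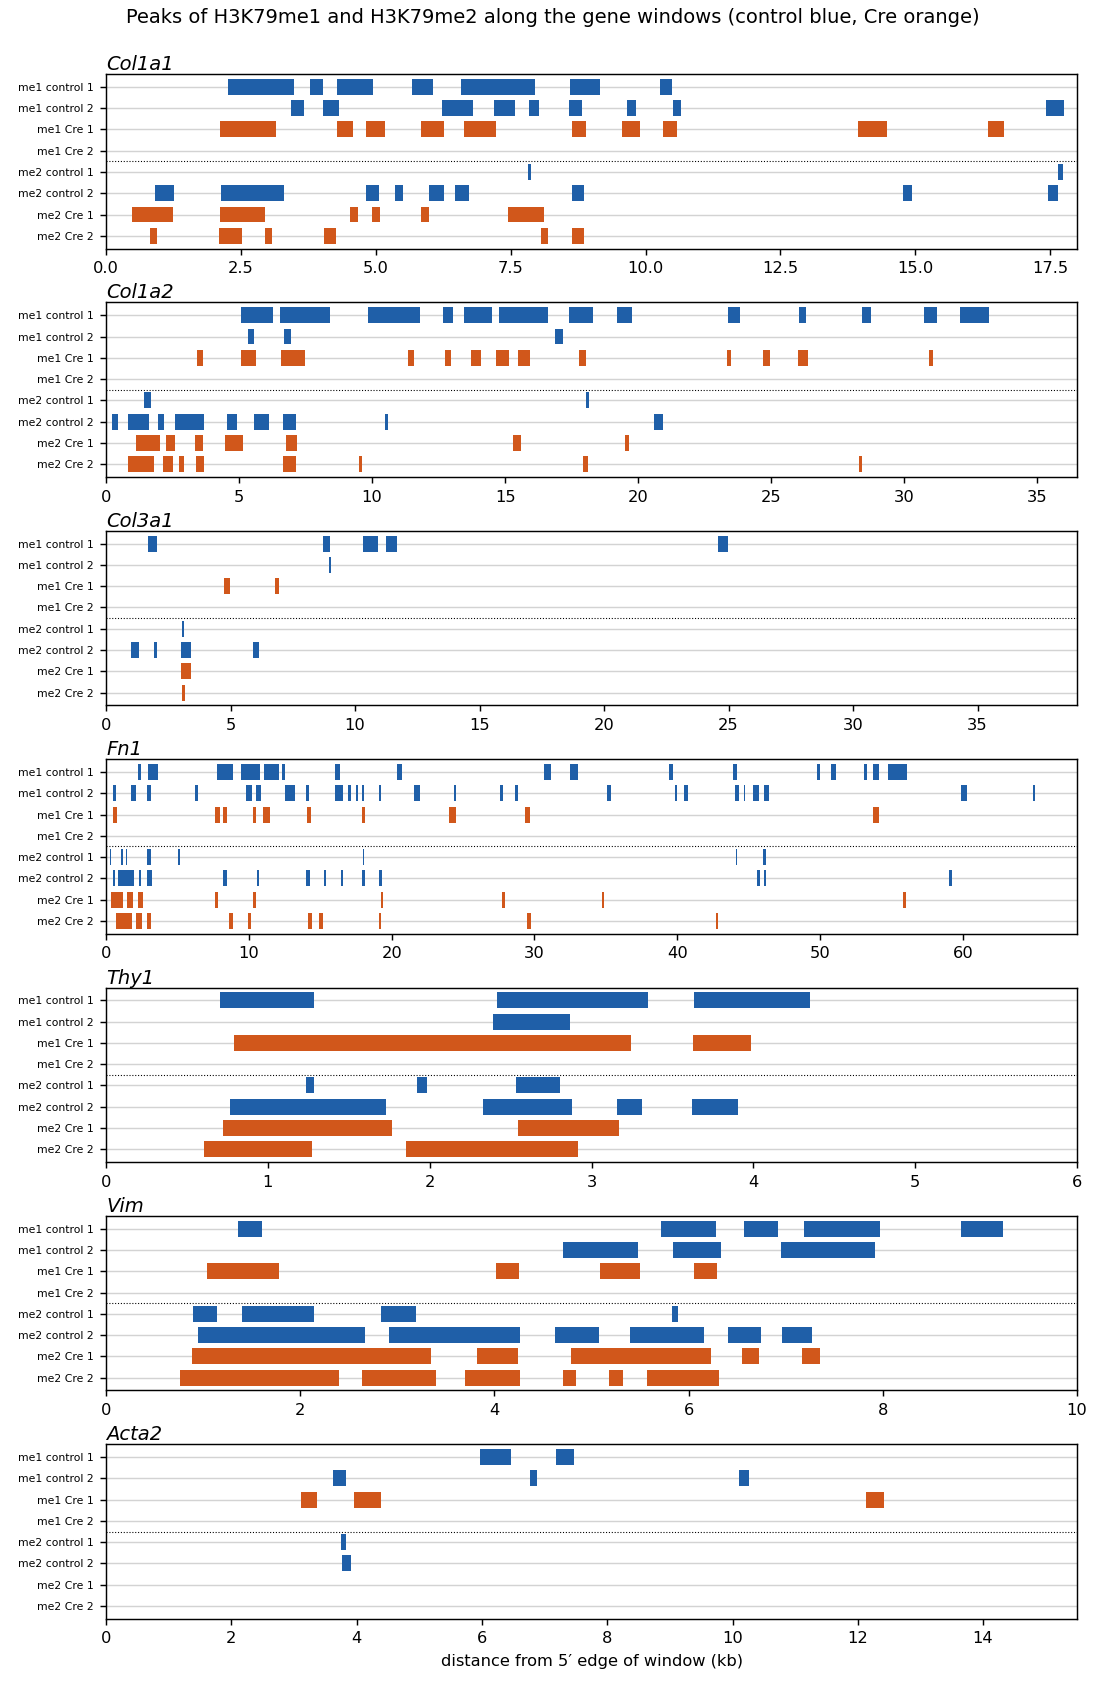
Peaks of the 8 lists along the 7 gene windows, drawn to scale as bars from the 5′ edge of each window (x axis, kb), control libraries in blue and Cre libraries in orange, H3K79me1 above the dotted line and H3K79me2 below. H3K79me2 peaks crowd toward the left edge, H3K79me1 peaks reach farther right, and the fourth row, H3K79me1 Cre replicate 2, is empty in every window.

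The map of peaks along the windows shows that the marks lay at different places in the genes. Summed over the 7 windows, the first of 3 equal parts counted from the 5′ edge held 77.2% and 69.9% of the H3K79me2 cover in the controls, against 70.0% and 72.9% in the Cre libraries. For H3K79me1 the same part held 45.2% and 41.3% in the controls and 48.7% in Cre replicate 1. All 4 H3K79me2 libraries lay above all 3 H3K79me1 libraries with peaks, and control and Cre libraries of each mark lay close together. No test of this difference was run, and the windows are the same in all libraries. Gene orientation came from the promoter table for Col1a2, Col3a1, Vim and Acta2 and is general knowledge for Col1a1, Fn1 and Thy1.

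In the type I collagen genes, H3K79me2 was called mainly near the 5′ edge, Col1a1 in control replicate 1 apart, and H3K79me1 spread farther along the window. Col1a1 encodes the major chain of the most abundant matrix collagen. Its window (chromosome 11, 94797000 to 94815000, forward strand) was covered by H3K79me1 to 26.0% in control replicate 1 and 14.2% in control replicate 2, and to 24.6% and 0% after Cre, replicates 1 and 2. Values below follow the same order. H3K79me2 covered 0.850% and 16.9% in the controls, against 14.9% and 7.05% with Cre. In both marks the groups overlapped, with Cre replicate 1 close to the higher control. Means were 20.1 ± 8.32% and 12.3 ± 17.4% for H3K79me1 and 8.88 ± 11.4% and 11.0 ± 5.59% for H3K79me2, control and Cre in turn (SD, n = 2). The differences of -7.77 and 2.12 percentage points had exact two-sided permutation p-values of 0.667 and 1. No such permutation test of 2 libraries against 2 can give less than 0.333.

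The H3K79me2 of Col1a1 included 2 stretches present in control replicate 2 and both Cre libraries. One of 45 bp began 0.903 kb from the 5′ edge (94797903 to 94797947) and one of 381 bp 2.13 kb from it (94799132 to 94799512). Control replicate 1 had only 2 peaks in this gene, at 7.83 kb and near the 3′ edge, so no base was shared by all 4 lists. Without that control, both Cre libraries lay below the remaining one, with a difference of -5.91 points.

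Col1a2 encodes the second chain of type I collagen. Its window (chromosome 6, 4455000 to 4491500, forward strand) was covered by H3K79me1 to 33.8% and 2.22% in the controls and to 12.8% and 0% after Cre. The control values were the farthest apart of all 7 genes, with 13 peaks in replicate 1 and 3 in replicate 2. H3K79me2 covered 0.964% and 11.5% in the controls, against 8.47% and 7.58% with Cre, so both Cre libraries lay between the controls. Cre minus control was -11.6 points for H3K79me1 (exact permutation p = 0.667) and 1.77 points for H3K79me2 (exact permutation p = 1).

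Position was more even than amount in Col1a2. The mean place of the H3K79me2-covered bases lay between 14.2% and 15.5% of the window from its 5′ edge in all 4 libraries, and that of H3K79me1 between 27.9% and 43.2% in the 3 libraries with peaks. A stretch of 200 bp, 1.43 kb from the 5′ edge (4456431 to 4456630), was called for H3K79me2 in all 4 lists. For H3K79me1, 2 stretches farther in, of 242 and 266 bp at 5.32 and 6.69 kb, were called in both controls and in Cre replicate 1.

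Col3a1, the type III collagen found with type I in skin and vessels, had little of either mark. Its window (chromosome 1, 45368000 to 45407000, forward strand) was covered by H3K79me1 to 5.41% and 0.274% in the controls and to 1.10% and 0% after Cre, and by H3K79me2 to 0.172% and 2.87% in the controls, against 1.05% and 0.326% with Cre. The groups overlapped in both marks. Differences were -2.29 and -0.832 points, with exact permutation p-values of 0.667 and 1. The few H3K79me2 peaks nevertheless fell on one place. A stretch of 60 bp, 3.06 kb from the 5′ edge (45371062 to 45371121), was called in all 4 lists, and in control replicate 1 and both Cre libraries the peak over it was the only one in the gene.

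Fibronectin had H3K79me2 at its 5′ edge and scattered H3K79me1, the latter lower in both Cre libraries. The Fn1 window (chromosome 1, 71632000 to 71700000, reverse strand) was covered by H3K79me1 to 13.9% and 10.6% in the controls and to 4.87% and 0% after Cre, from 17, 26, 10 and 0 peaks. The groups did not overlap. The means were 12.2 ± 2.37% and 2.44 ± 3.44% (SD, n = 2), a difference of -9.79 points (exact permutation p = 0.333, the smallest possible). Without Cre replicate 2 the difference was -7.36 points, and after subtraction of each library's median over the genome windows fitted it turned to 9.98 points. H3K79me2 covered 1.41% and 5.26% in the controls, against 4.15% and 4.92% with Cre, with both Cre values between the controls (difference 1.20 points, exact permutation p = 1).

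In Fn1 between 77.5% and 89.2% of the H3K79me2 cover lay in the part of the window nearest its 5′ edge, and between 56.8% and 62.5% of the H3K79me1 cover. Stretches of 139 bp and 20 bp, 1.04 and 1.45 kb from the edge (71698821 to 71698959 and 71698527 to 71698546), were called for H3K79me2 in all 4 lists. The controls shared 1453 bp of H3K79me1, of 9453 bp called in replicate 1 and 7177 bp in replicate 2. They shared 612 bp of H3K79me2, of 957 bp and 3577 bp.

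Thy1 was densely covered for its short length. Its window (chromosome 9, 43851000 to 43857000, forward strand) was covered by H3K79me1 to 37.3% and 8.00% in the controls and to 46.9% and 0% after Cre. The highest and the lowest of these values were both from Cre libraries, so the difference of 0.783 points (exact permutation p = 1) is a mean of unlike libraries. It was 24.2 points without Cre replicate 2. H3K79me2 covered 6.43% and 32.6% in the controls, against 27.8% and 28.9% with Cre. The Cre values lay between the controls and close to each other, at 28.3 ± 0.789% against 19.5 ± 18.5% in control (SD, n = 2, difference 8.81 points, exact permutation p = 1). Stretches of 38 and 263 bp, at 1.23 and 2.55 kb (43852233 to 43852270 and 43853546 to 43853808), were called for H3K79me2 in all 4 lists.

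In Thy1 the marks also lay on the same bases. Of the H3K79me2 bases called in either control, 71.5% were in an H3K79me1 peak of either control. After Cre the share was 92.5%, with every H3K79me1 base from replicate 1, since replicate 2 had no peak here. The shares rest on unlike numbers of libraries and cannot be read as a change after Cre. The longest H3K79me1 peak of all 7 genes, 2456 bp, was found here in Cre replicate 1.

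Vimentin, the main intermediate filament protein of mesenchymal cells, had the highest H3K79me2 cover of the 7 genes in every library. Its window (chromosome 2, 13495000 to 13505000, forward strand) was covered by H3K79me2 to 14.2% and 49.3% in the controls and to 47.0% and 39.8% after Cre. Both Cre libraries lay between the controls, and control replicate 1 was far below the rest. The means were 31.7 ± 24.8% and 43.4 ± 5.07% (SD, n = 2), a difference of 11.7 points (exact permutation p = 1). Without control replicate 1 it became -5.87 points. The strongest H3K79me2 peak of the 7 genes lay here in Cre replicate 1, 2465 bp wide with a fold enrichment of 3.39.

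The H3K79me2 called in Vim in both controls, 1285 bp, was called to its last base in both Cre libraries. It formed 4 stretches of 190, 744, 288 and 63 bp, which began 0.949, 1.40, 2.91 and 5.83 kb from the 5′ edge (13495949 to 13496138, 13496398 to 13497141, 13497909 to 13498196 and 13500831 to 13500893). Of the wider cover in control replicate 2, 79.2% was also called in Cre replicate 1, and 65.9% in the other Cre library. The H3K79me2 nearest the 5′ edge of this gene was thus called with and without Cre.

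H3K79me1 in Vim was lower in both Cre libraries, and its mean place lay nearer the 5′ edge in Cre replicate 1. It covered 23.9% and 22.3% in the controls, against 16.3% and 0% with Cre, and the groups did not overlap. Means were 23.1 ± 1.10% and 8.15 ± 11.5% (SD, n = 2), a difference of -14.9 points (exact permutation p = 0.333), or -6.77 points without Cre replicate 2. The direction turned to 4.85 points after subtraction of library medians, to 3.72 points with peaks of −log10 p of at least 2 and to 2.45 points with an equal number of strongest peaks per library. The mean place of the covered bases was 67.3% and 63.3% of the window from the 5′ edge in the controls and 34.8% in Cre replicate 1, which had no peak in the part nearest the 3′ edge. Cre replicate 1 still called 19.4% of the H3K79me1 bases of control replicate 1 and 27.8% of those of control replicate 2. Only 219 of the 1176 bp called in both controls were called in Cre replicate 1. With 1 Cre library holding peaks here, this shift was not tested.

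Smooth muscle actin, an actin of contractile fibroblasts, was the only gene of the 7 with no H3K79me2 peak in either Cre library. The Acta2 window (chromosome 19, 34315000 to 34330500, reverse strand) had 1 H3K79me2 peak in each control, of 75 and 155 bp, which shared 61 bp beginning 3.76 kb from the 5′ edge. These covered 0.484% and 1.00% of the window, against 0% and 0% after Cre (difference -0.742 points, exact permutation p = 0.333). H3K79me1 covered 5.10% and 3.05% in the controls, against 6.17% and 0% with Cre, with overlapping groups (difference -0.990 points, exact permutation p = 1). Since the control peaks were so short and weak, with −log10 p of 1.98 and 1.42, their absence after Cre is a small measurement. Of genome windows of this width, 25.7% and 46.7% held any H3K79me2 peak in the controls, against 11.8% and 28.9% with Cre. An empty window was thus the usual state in the Cre lists.

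**Figure D2:**
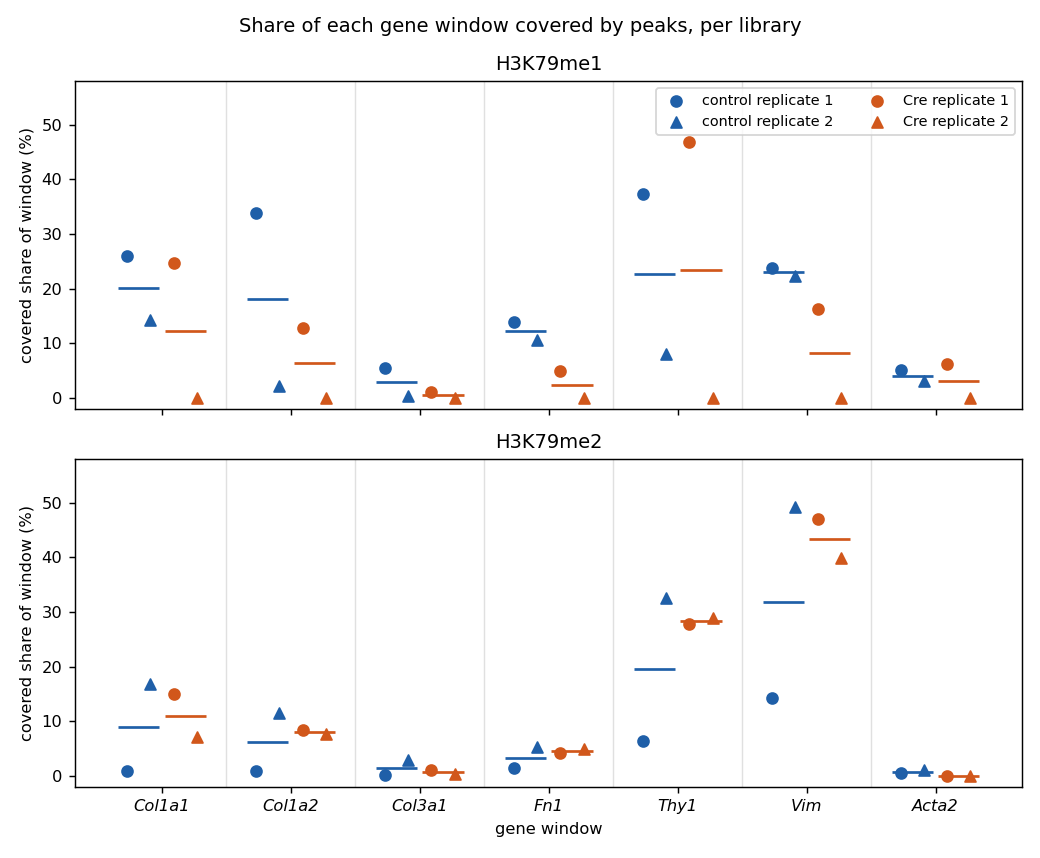
Covered share of each gene window (y axis, percent) in each library, H3K79me1 in the upper and H3K79me2 in the lower panel, with control in blue, Cre in orange, circles for replicate 1 and triangles for replicate 2. Short lines are group means of 2 libraries, and H3K79me1 Cre replicate 2 lies at 0% in all 7 genes while the H3K79me2 Cre values lie between the controls in 6 of them.

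The plot of covered shares has Vim highest and Thy1 next in all 4 H3K79me2 libraries. For H3K79me1 the order of the genes differed between libraries, with Thy1 highest in control replicate 1 and Cre replicate 1 and Vim in control replicate 2. For H3K79me2 the control means ran from 31.7% in Vim through 19.5% in Thy1, 8.88% in Col1a1, 6.25% in Col1a2, 3.33% in Fn1 and 1.52% in Col3a1 to 0.742% in Acta2. The SDs of neighbours in this order overlapped, and control replicate 1 was below control replicate 2 in all 7 genes. For H3K79me1 the control means were 23.1% in Vim, 22.6% in Thy1, 20.1% in Col1a1, 18.03% in Col1a2, 12.2% in Fn1, 4.07% in Acta2 and 2.84% in Col3a1. The first 4 of these differed by less than the spread between the controls in Thy1 and Col1a2.

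Within each list, the windows were also set among all windows of their own width along the genome. Vim stood among the most covered in every H3K79me2 list. At least as much H3K79me2 was found in 1.10% and 1.25% of 264109 windows in the controls and in 1.14% and 1.21% after Cre. For Thy1 the shares were 2.27% and 2.51% in the controls, against 2.45% and 2.07% with Cre, of 440158 windows. These places were close to each other although the cover itself differed several-fold between the libraries. Col1a1, Col1a2 and Fn1 came next, at 4.07% to 12.6%. Col3a1 ran from 14.1% to 42.0%. Acta2 stood at 13.1% and 30.8% in the controls and at 100% in both Cre lists, where it had no peak. Lists of different lengths give such places only within a list, so they show no change between groups.

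**Figure D3:**
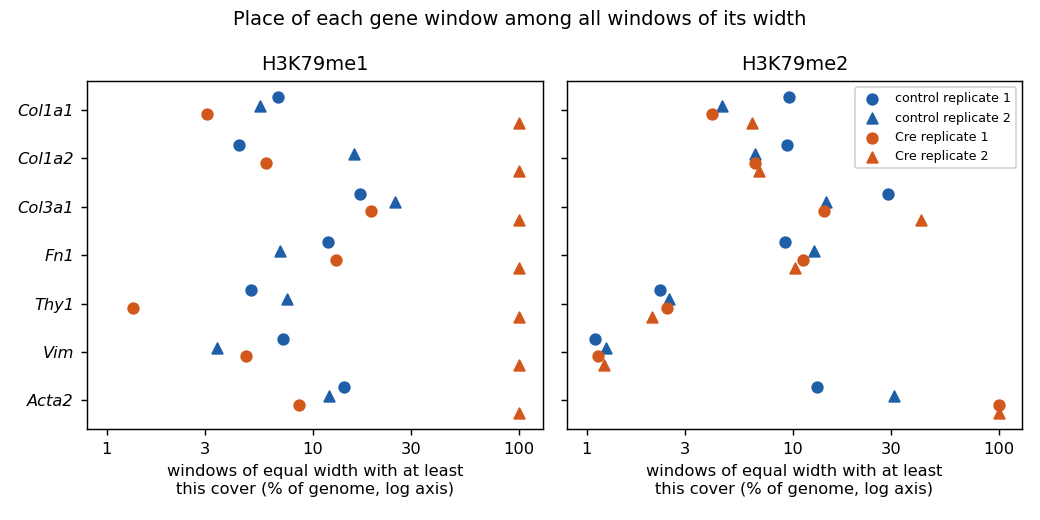
Percent of all genome windows of equal width whose cover is at least that of the gene window (x axis, log scale), per gene and library, with control in blue, Cre in orange, circles for replicate 1 and triangles for replicate 2. A value of 100 is a window with no peak, and the 4 H3K79me2 points of Vim lie together between 1.10% and 1.25%.

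For H3K79me1 the corresponding shares in the 3 libraries with peaks were 3.43% to 7.15% for Vim, 1.34% to 7.52% for Thy1 and 3.05% to 6.74% for Col1a1. They were 4.37% to 15.7% for Col1a2 and 6.96% to 13.0% for Fn1. Acta2 ran from 8.54% to 14.1%, and Col3a1, the lowest placed of the 7 genes in each of these libraries, from 16.8% to 24.9%.

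The sequence flanking the windows was in most cases covered less than the windows. With a flank as wide as the window on each side, the window was covered more than both flanks in 6, 5 and 7 genes in H3K79me1 control replicates 1 and 2 and Cre replicate 1, and in 7, 5, 6 and 6 genes in the 4 H3K79me2 libraries, controls first. Acta2 was an exception in both H3K79me1 controls. The flank past its 3′ end, on the side of Stambpl1 in the reference table, was covered to 20.8% and 14.7% in the controls and to 3.62% and 0% after Cre. In Fn1 the flank past the 3′ end, toward Atic, was covered by H3K79me1 to 7.17% and 7.11% in the controls and 3.81% in Cre replicate 1. A part of these neighbours in the cover of Acta2 and Fn1 was not tested.

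**Figure D4:**
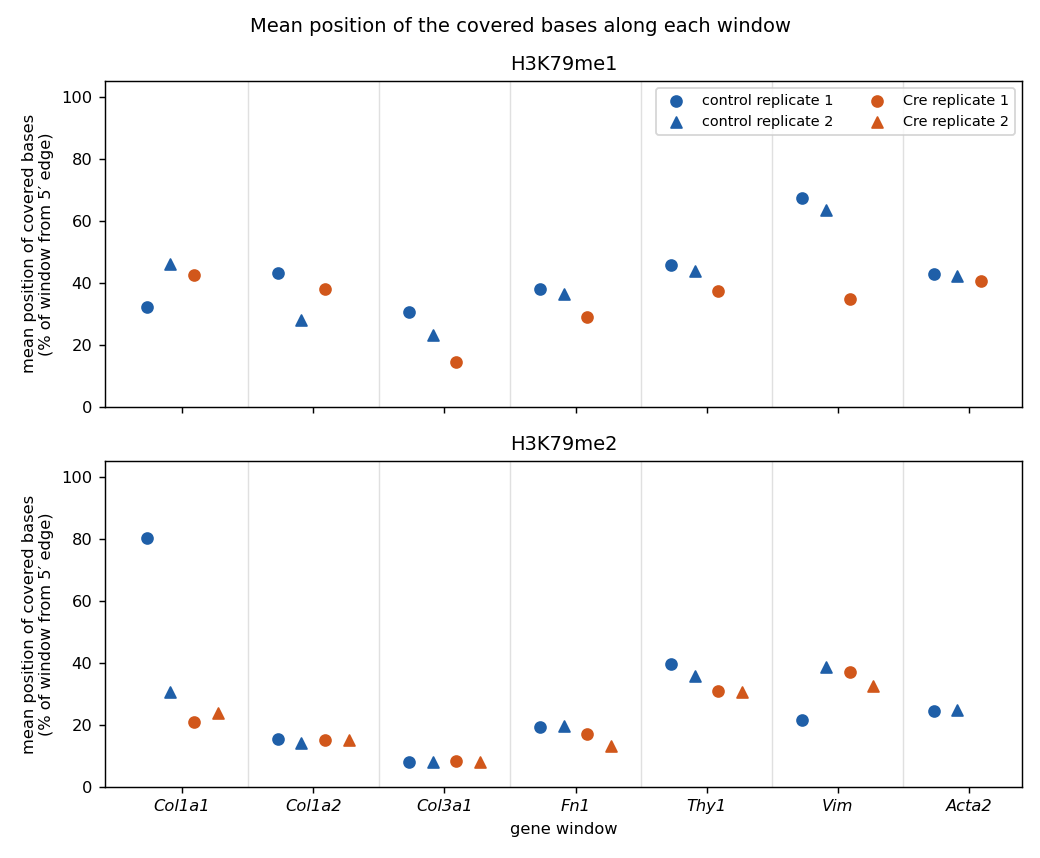
Mean position of the covered bases (y axis, percent of the window from its 5′ edge) per gene and library, H3K79me1 above and H3K79me2 below, with control in blue, Cre in orange, circles for replicate 1 and triangles for replicate 2 and no point where a library had no peak. H3K79me2 lies at 7.92% to 8.21% in Col3a1 and 14.2% to 15.5% in Col1a2, below the H3K79me1 points of the same genes, and Col1a1 in H3K79me2 control replicate 1 stands apart at 80.1%.

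The plot of mean positions separates the marks in 4 of the 7 genes, Col1a2, Col3a1, Fn1 and Acta2. In Fn1 the H3K79me2 positions ran from 13.2% to 19.5% and the H3K79me1 positions from 28.9% to 38.0%. In Col3a1 they ran from 7.92% to 8.21% and from 14.4% to 30.5%, and in Acta2 they were 24.4% and 24.8% against 40.5% to 42.7%. In Thy1 and Vim the ranges of the marks overlapped, at 30.5% to 39.5% against 37.4% to 45.8% and at 21.5% to 38.5% against 34.8% to 67.3%. They overlapped in Col1a1 too, through control replicate 1 of H3K79me2, which had only 2 short peaks.

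Few bases were called for both marks in both controls. Counting a base in either control, 66.5% of the H3K79me2 bases of Col1a1, 55.0% of those of Fn1, 46.7% of those of Acta2, 31.9% of those of Vim, 29.0% of those of Col1a2 and 10.4% of those of Col3a1 lay in H3K79me1 peaks. Requiring both controls of each mark left 521 shared bp over the 7 genes rather than 8801, of which 274 bp lay in Thy1, 192 bp in Fn1 and 55 bp in Vim. The other genes then shared none.

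Called in all 4 lists of its mark, H3K79me2 held 2005 bp of the 7 windows, or 1.04% of their length, beside 0.301% of the genome. Vim gave most of it with 1285 bp, followed by Thy1 with 301 bp, Col1a2 with 200 bp, Fn1 with 159 bp and Col3a1 with 60 bp. H3K79me1 held 0 bp in all 4 lists, beside 0.0209% of the genome, since 1 Cre list had no peak in the windows.

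Read against the rest of the genome, the counts of genes whose control and Cre values did not overlap were close to or below the background, the H3K79me2 count with 1 library left out apart. For H3K79me1, both Cre values fell short of both control values in 2 of the 7 genes, Fn1 and Vim, and exceeded them in 0. Of 44461 windows of 20 kb with any H3K79me1 cover, the 7 genes included, 27.1% were lower in this sense and 0.223% higher. The median difference was -7.77 points over the 7 genes and -1.38 points over these windows. Without Cre replicate 2, the remaining Cre value was below both controls in the same 2 genes (27.2% of windows) and above both in 2, Thy1 and Acta2 (20.5%). The medians were then -1.74 and -0.760 points.

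For H3K79me2, 1 of the 7 genes, Acta2, was lower in both Cre libraries and 0 were higher, beside 11% and 2.93% of 86231 windows with any cover. The median difference was 1.77 points over the genes and -0.290 over the windows. Without control replicate 1, both Cre libraries lay below the remaining control in 7 of 7 genes, as they did in 65.5% of the windows, and above it in 0, against 2.99%. The medians were then -3.52 and -0.630 points. The direction turned in 5 of the 7 genes when this library was left out.

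In a limma fit over all windows, with every library and no replicate block, none of the genes tested passed the threshold. A mean cover of 10% or more was required, which for H3K79me1 left 10296, among them Col1a1, Col1a2, Thy1 and Vim. With Benjamini-Hochberg adjustment over all of them 0 were called (0% of those tested, with 18 at an unadjusted p under 0.05), and the adjusted p from limma was 0.721 for Col1a1, 0.649 for Col1a2 and Vim and 0.976 for Thy1. With the replicate block limma called 6726 of the 10296 windows, 6713 of them lower after Cre. Of the 4 genes it called only Vim, with an adjusted p of 0.0490. Whether the numbers pair the libraries is not known, so neither fit can be preferred on this ground. The block also leaves fewer degrees of freedom for the spread, and the nearly empty Cre replicate 2 enters both fits. Of the 4 genes, Vim alone was lower in both Cre libraries, a state shared by 43.9% of the windows fitted, and 0.00971% were higher in both.

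For H3K79me2, 6486 windows passed, among them Thy1 and Vim, and limma called 0 (0%), with 0 at an unadjusted p under 0.05. Both genes had an adjusted p of 1.00 in limma. Among these windows 0.0617% were lower and 12.2% higher in both Cre libraries, and neither gene was among them. With control replicate 2 left out, the median difference over these windows was 16.6 points, with Thy1 at 21.9 and Vim at 29.3. With control replicate 1 left out it was -5.00 points, with Thy1 at -4.29 and Vim at -5.87. Each of these rests on 1 control library. Simulated shifts of 30 points in 200 windows were called in 0 of them at the spread of the data, for either mark, and in 200 when that spread was multiplied by 0.1. Unlike the data, the simulation drew noise independently for each window and let cover fall below 0. A count of 0 therefore does not show that cover was unchanged.

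The marks were also compared in their response to Cre, in points of cover, although their peak names carry unlike p settings. The change in H3K79me2 minus that in H3K79me1 was 26.6 points in Vim, 9.89 in Col1a1 and 8.02 in Thy1, the 3 genes among 8418 windows with a mean of at least 10% over all 8 libraries. The median over these windows was 24.9 points. Leaving out 1 library at a time, it ran from 12.4 without H3K79me1 Cre replicate 2 to 36.3 without H3K79me1 control replicate 2. It was 14.9 without H3K79me2 control replicate 1. With every library, limma called 0 of these windows (0%), with 191 at an unadjusted p under 0.05. The adjusted p from limma was 0.539 for Vim, 0.620 for Col1a1 and 0.791 for Thy1. Taking both marks together in an exact permutation test over 36 arrangements, the p-values of the 7 genes ran from 0.222 in Fn1 to 0.889 in Vim, and the smallest possible was 0.0556. The mean difference of the marks was negative in 6 genes and positive in Thy1. It was negative in 3 genes without H3K79me1 Cre replicate 2, in 2 with an equal number of strongest peaks per library and in 0 after subtraction of library medians.

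**Figure D5:**
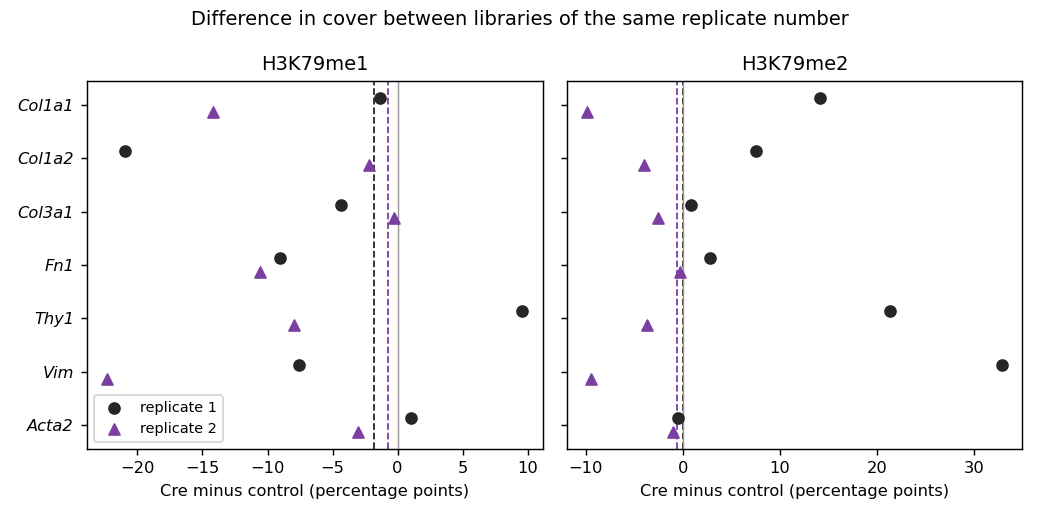
Cre minus control in covered share (x axis, percentage points) for each gene, taken between libraries with the same replicate number, circles for number 1 and triangles for number 2, with dashed lines at the median over all 20 kb windows with any cover. In H3K79me2 the circles lie to the right of 0 in 6 genes and all 7 triangles to the left, so the direction differed by replicate number.

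Libraries with the same replicate number gave opposite directions for H3K79me2. Between libraries numbered 1, cover was higher after Cre in 6 of the 7 genes, with a median of 7.50 points, and between those numbered 2 it was lower in 7 of 7, with a median of -3.73 points. Over all windows with any cover, which were not matched to the genes in cover, the corresponding medians were 0 and -0.580 points. For H3K79me1 it was lower in 5 of 7 genes between libraries numbered 1, Thy1 and Acta2 being higher, and in 7 of 7 between those numbered 2, where the Cre value was always 0%. The medians were -4.31 and -8.00 points, against -1.83 and -0.730 over the windows. Only in Col1a1, Col1a2, Col3a1, Fn1 and Vim for H3K79me1, and in Acta2 for H3K79me2, did both numbers show the same sign. The labels do not say that a number marks a shared culture or day. In the peak names, however, control and Cre libraries of a mark with the same number carry the same tag, whose meaning is not stated in the sources used here.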

How the data were processed

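The files used were peak lists from H3K79me1 and H3K79me2 ChIP-seq, 1 per library, in mm9 coordinates. The peak names mention an input, broad peaks and what reads as a p setting of 0.001 (H3K79me1) or 0.0001 (H3K79me2). Amounts in the same group were therefore not compared between marks. Changes after Cre were compared and averaged over the marks, in points of cover called at these unlike settings. The listed peaks do not all reach those values, since the lowest deposited −log10 p lies between 1.00 and 1.03 in the 8 lists. The limit that the listed peaks passed is not given in the sources used here. The submitters' processing notes name MACS2, Bowtie2, deepTools, HOMER, bedtools and SAMtools 1.2, with no roles. For each peak the authors deposited a fold enrichment. They also deposited −log10 p and −log10 q, and a score that is the whole part of 10 times −log10 q. Human 293T chromatin was added as a spike-in per the labels' protocols, and the lists record no scaling by it. Since a list holds only places past a threshold, a uniform change of level need not show in it.

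The covered share of a window is the percent of its bases inside peaks, with positions counted from 1. Groups were compared gene by gene with an exact two-sided permutation test over 6 arrangements, or 36 stratified by mark. Windows of 20 kb along the genome and the 7 gene windows were fitted together with limma (empirical Bayes with a trend, Benjamini-Hochberg adjustment, threshold 0.05). The genes, windows and lists were chosen with earlier results of these data known. All 7 genes are named, as the rule for naming required. A wider list of matrix genes was not analysed here, as it needs an mm9 annotation. The alternatives changed which peaks were kept, whether near ones were joined, the window edges, the scaling, the size and minimum cover of genome windows, the chromosomes, the replicate block and the libraries. Counts with 1 doubted library left out, counts over any cover and a crossed block were added after seeing the data. The cover calculation was checked base by base and the fit on simulated data. Software was R 4.3.3 with limma 3.58.1 and, under Python 3.11.15, SciPy 1.17.1, NumPy 2.4.6, pandas 2.3.3 and Matplotlib 3.10.9.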

Additional observations from a re-analysis of the deposited data

How the results depend on the processing

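Of 334 values recomputed under an alternative, 263 were counted as unchanged and 59 changed sign. Unchanged meant the same sign and side of 0.05 for single genes. For overall differences it meant the same sign and a move of less than 1 SD, and for counts a ratio of at most 1.5. Exact permutation p-values of single genes cannot fall below 0.0556, so their side of 0.05 was fixed in advance. The 263 is therefore no measure of how firm the results are. All differences are Cre minus control in percentage points. The difference of library medians over the 7 genes was -9.5 for H3K79me1 and 1.5 for H3K79me2. Keeping peaks whose −log10 p reached 2, these became 0 and -0.142, with Vim at 3.72 for H3K79me1, H3K79me2 at -0.142 in Col1a1, -0.482 in Col1a2, -0.109 in Fn1 and -3.22 in Thy1, and both marks at -1.61 in Thy1 and 4.62 in Vim. With an equal number of strongest peaks the H3K79me1 difference was 0.212, Vim stood at 2.45 for H3K79me1, and both marks gave 3.59 in Col1a1, 1.39 in Col1a2, 0.465 in Fn1 and 11.7 in Vim, so 2 rather than 6 genes were lower over both marks. Merging peaks within 1 kb gave -0.649 for H3K79me2 in Fn1, and windows widened by 2 kb gave -3.51 for H3K79me1 in Thy1. Subtracting library medians turned the overall differences to 10.3 and -4.04. It gave for H3K79me1 12.0 in Col1a1, 8.17 in Col1a2, 17.5 in Col3a1, 9.98 in Fn1, 4.85 in Vim and 18.8 in Acta2, and for H3K79me2 -3.42 in Col1a1, -3.78 in Col1a2 and -4.34 in Fn1. Over both marks it gave 4.29 in Col1a1, 2.2 in Col1a2, 5.55 in Col3a1, 2.82 in Fn1, 5.5 in Vim and 6.25 in Acta2, with 0 genes lower, and limma then called 34 windows for H3K79me1 and 7 for H3K79me2. This scaling took 1 value from each library, so all 7 genes of a mark moved by the same number of points. Those values came from genome windows covered to 10% or more on average. Col3a1, covered by H3K79me1 to 5.41% at most, was thus given a rise of 17.5 points. Turns after subtraction therefore follow from the scaling and show no change at the gene itself. The cause of the turns under other settings was not tested. Leaving out 1 library at a time, H3K79me1 differences ran from -20.1 to 4.54 in Col1a1, -27.4 to 4.21 in Col1a2, -4.86 to 0.276 in Col3a1, -12.2 to -7.36 in Fn1, -22.6 to 24.2 in Thy1, -23.1 to -6.77 in Vim and -4.07 to 2.09 in Acta2. Those of H3K79me2 ran from -5.91 to 10.1 in Col1a1, -3.52 to 7.06 in Col1a2, -2.18 to 0.517 in Col3a1, -0.724 to 3.13 in Fn1, -4.29 to 21.9 in Thy1, -5.87 to 29.3 in Vim and -0.9999 to -0.484 in Acta2. Over both marks they ran from -8.98 to 3.33 in Col1a1, -12.8 to 2.99 in Col1a2, -2.85 to -0.278 in Col3a1, -5.51 to -3.08 in Fn1, -6.92 to 16.5 in Thy1, -10.4 to 7.16 in Vim and -2.41 to 0.676 in Acta2. The overall difference ran from -17.4 to -1.57 for H3K79me1 and from -3.79 to 6.79 for H3K79me2, and the number of genes lower over both marks from 3 to 7. Windows called by limma ran from 0 to 5632 for H3K79me2, 0 to 77 for the difference between the marks, and stayed at 0 for H3K79me1. Of 112 such values of single genes, 25 changed sign. Same-numbered libraries deviated together in H3K79me1 (correlation 0.40 over 10296 windows) and oppositely in H3K79me2 (-0.32 over 6486), with 2 pairs. No label says that numbers pair them, though same-numbered libraries of a mark share a tag of unstated meaning in the peak names. With the replicate block limma called 6726 of 10296 windows for H3K79me1, 6713 of them lower, and the adjusted p of Vim (-14.9) was 0.0490. The block called 0 for H3K79me2 and 0 for the difference between the marks, and crossing the numbers called 0 for H3K79me2. Counting a base in either rather than both controls raised the bases shared by the marks from 521 to 8801. Depth is unknown, so no limit of detection can be given.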
